A study of Homo sapiens with 4 samples.

Results

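NF-kB subunits and their inhibitors were examined across 2 clones of Raji, a long-established human cell line from a Burkitt lymphoma that carries Epstein-Barr virus. The 10 genes were the subunits NFKB1, NFKB2, REL, RELA and RELB, the cytoplasmic inhibitors NFKBIA, NFKBIB and NFKBIE, and the nuclear inhibitor-like proteins NFKBIZ and BCL3. Members were all probe sets whose annotation gave 1 of these symbols alone, which were 20 of the 54613 non-control probe sets and covered 9 of the 10 genes, out of 19775 genes with a symbol of their own in the table. BCL3 had no such probe set, because both of its probe sets also carried the symbol MIR8085. One clone had been made with TALENs (engineered nucleases whose DNA-binding part sets where they cut) aimed at the long non-coding RNA gene DLEU1, and was labelled as DLEU1 downregulated. The other was the wild-type control clone. Both grew in RPMI medium with serum, and each was measured on 2 Affymetrix HG-U133 Plus 2.0 arrays, 4 arrays in all. Each genotype was thus 1 clone, and the sources used here give neither the TALEN target site nor the kind of duplicate. The p-values therefore reflect the spread among 2 arrays per clone, possibly technical alone, and a difference between the clones cannot be told apart from a difference caused by DLEU1.

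NF-kB is a family of dimeric transcription factors. In resting cells most dimers are held in the cytoplasm by inhibitors of the IkB family, and signals that activate the IkB kinase complex lead to degradation of the inhibitor and entry of the dimer into the nucleus. In B cells the pathway is driven by the antigen receptor, CD40, BAFF and Toll-like receptors, and in virus-transformed B cells also by a viral mimic of CD40. Several inhibitors and subunits are themselves NF-kB targets, so the pathway feeds back on its own components.

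Because that feedback acts through kB sites, the short motif that NF-kB binds, the members' upstream sequence was searched for the kB consensus on both strands. The consensus was GGGRNNYYCC, where R is A or G, Y is C or T and N is any base. Overlapping matches were taken as 1 site. The RefSeq promoter sequences of GRCh38.p14 at hand covered 8 of the 10 genes with 14 annotated transcript starts, and 250 bases before each start were searched. RELB and NFKBIE, both higher in the DLEU1-downregulated clone, had no promoter sequence there and were not searched. A site lay before at least 1 start of 6 of these 8 genes, NFKB1, NFKB2, REL, NFKBIA, NFKBIB and NFKBIZ. It was found in 8 of 14 member windows (57.1%), against 9.96% of 35116 windows over all genes in the table. No match in a window says only that these letters are not in it, and a match is not evidence of binding in Raji. The sequences below show the sites of the members whose values the results turn on, NFKBIA, NFKB1 and NFKB2, which were higher in the DLEU1-downregulated clone, and REL, which was not. They are written 5′ to 3′ on the strand of the gene, with the match to this consensus in capitals. Looser variants of the motif were not searched and are not marked. The first 3 are the 250 bases before the start, at chr14:35404750-35404999 (minus strand) for NFKBIA, chr4:102501109-102501358 (plus strand) for the first start of NFKB1 and chr2:60881324-60881573 (plus strand) for REL. The last 2 are 30 bases around a site before start 2 of NFKB2 (chr10:102394461-102394490, plus strand) and before its start 3 (chr10:102395674-102395703, plus strand).
NFKBIA: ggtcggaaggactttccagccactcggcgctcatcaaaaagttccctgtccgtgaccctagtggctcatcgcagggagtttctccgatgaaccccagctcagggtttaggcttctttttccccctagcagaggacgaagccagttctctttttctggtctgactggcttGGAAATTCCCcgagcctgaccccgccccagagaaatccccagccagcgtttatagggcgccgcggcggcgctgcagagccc
NFKB1: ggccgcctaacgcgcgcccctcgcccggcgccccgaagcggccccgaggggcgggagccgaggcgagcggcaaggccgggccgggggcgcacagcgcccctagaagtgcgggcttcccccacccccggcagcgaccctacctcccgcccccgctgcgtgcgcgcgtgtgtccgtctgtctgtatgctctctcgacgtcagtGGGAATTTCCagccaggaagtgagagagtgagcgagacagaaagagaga
REL: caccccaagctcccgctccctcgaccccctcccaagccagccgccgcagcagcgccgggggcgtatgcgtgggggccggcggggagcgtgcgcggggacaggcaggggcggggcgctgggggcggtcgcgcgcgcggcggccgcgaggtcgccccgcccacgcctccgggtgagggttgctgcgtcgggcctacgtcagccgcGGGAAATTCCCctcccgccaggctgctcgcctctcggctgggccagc
NFKB2, start 2: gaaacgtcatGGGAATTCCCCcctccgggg
NFKB2, start 3: tggtattttcGGGACTTTCCtaagctgctc
The site began 81 bases before the start of NFKBIA, 49 bases before that of NFKB1 and 47 bases before that of REL. For NFKB2 the printed sites began 107 and 21 bases before their starts, and each of these windows held a second site, at 78 and 176 bases.

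**Figure D1:**
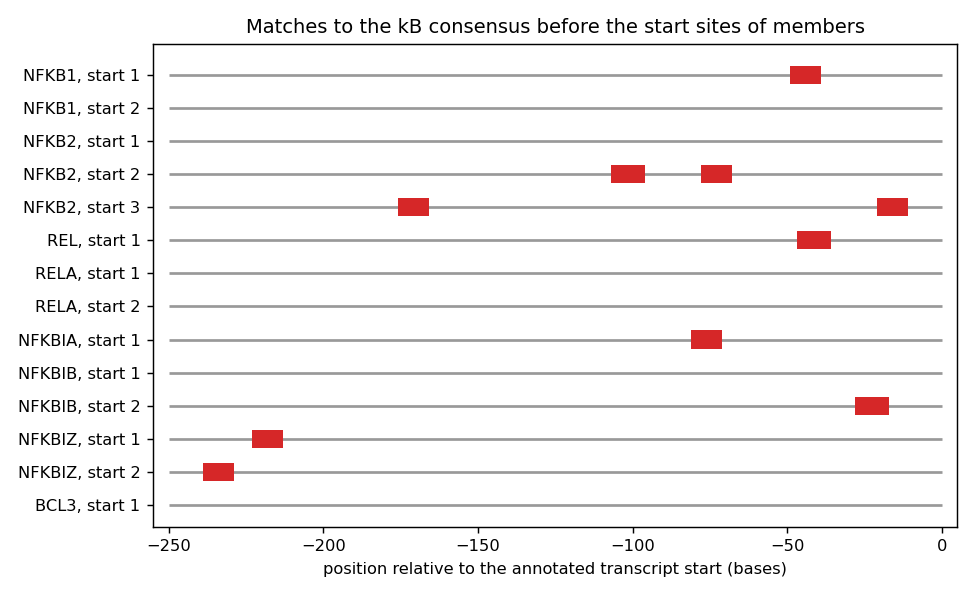
Position of kB consensus matches (red bars) in the 250 bases before each annotated transcript start of the 8 member genes with a promoter sequence (all but RELB and NFKBIE). The horizontal axis gives bases relative to the start, and each grey line is 1 start. Sites appear before 8 of 14 starts, and a site lies within 50 bases of the start in NFKB1, REL, NFKBIB and start 3 of NFKB2.

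The arrays were not on a common scale, since the trimmed mean intensity ran from 131 to 197 and was lowest on control replicate 2. Intensities were therefore quantile-normalized, and all intensities below are normalized values in arbitrary units, with the log2 change taken on log2(intensity + 16), positive where the DLEU1-downregulated clone was higher. Quantile normalization gives all arrays the same distribution, so a true difference in distribution between the clones would be removed as well. Where the values as deposited gave another call or direction, this is said beside the result. After normalization 11073 of 32768 tested probe sets (33.8%) passed the threshold, an adjusted p under 0.05 in limma, 5588 higher and 5485 lower (50.5% of the called were higher). As deposited, 5620 were higher and 1673 lower (77.1% of the called were higher), and the median change was 0.16 instead of 0.01. DLEU1, the targeted gene, read 1400 and 1300 in the control clone and 505 and 513 in the downregulated clone, a log2 change of -1.38 ± 0.07 (SE, adjusted p = 2.92e-06). The B-cell genes MS4A1, CD79A, CD79B and PAX5 had a summed intensity of 14013 and 14057 on the control arrays, above the 12348 and 12354 of the downregulated clone. Of these 4 genes 3 passed as lower, CD79A (-0.21, adjusted p = 0.0303), CD79B (-0.40, 5.08e-04) and PAX5 (-0.23, 0.00947), but as deposited CD79A and PAX5 turned to 0.15 and 0.14 and MS4A1 from -0.09 to 0.23, and limma called 0 of the 4 in either direction, also at unadjusted p under 0.05. The defining markers of T cells (CD3D, CD3E, CD3G, CD2 and CD7) summed to 34.6 to 52.8 and those of myeloid cells to 58.8 to 80.7. Fibroblast markers summed to 106 to 242, of which COL1A1 made up 74.1 to 152, and COL1A2 was lower on both scales (42.0 and 33.6 against 17.8 and 1.62, a change of -1.14, adjusted p = 0.0239, and 0.00129 as deposited). The part of these marker differences in the members' results was not tested.

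Of the 20 member probe sets, 19 were bright enough to be tested. In the DLEU1-downregulated clone 5 were higher (26.3%) and 5 lower (26.3%), and 9 did not pass. Over all tested probe sets 17.1% were higher and 16.7% lower. The median change of the 19 was 0.14, against 0.01 over all tested probe sets, and as deposited it was 0.45 against 0.16. The higher ones belonged to NFKB1, NFKB2, RELB, NFKBIA and NFKBIE, and the lower ones were 4 of REL and 1 of RELA. As deposited the same 5 were higher (background 17.2%), and limma called 0 lower, also at unadjusted p under 0.05 (background 5.11%). The calls of the rises stood on both scales, that of RELB narrowly as deposited (adjusted p = 0.0480). Those of the falls were made only after normalization, although 4 of the 5 kept a negative change as deposited. The deposited values moved every called member upward, for example NFKBIA 201502_s_at from 1.31 to 1.68 and REL 228812_at from -0.56 to -0.21. Such a shift favours rises and works against falls, so a call kept or lost between these scales is no independent check.

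**Figure D2:**
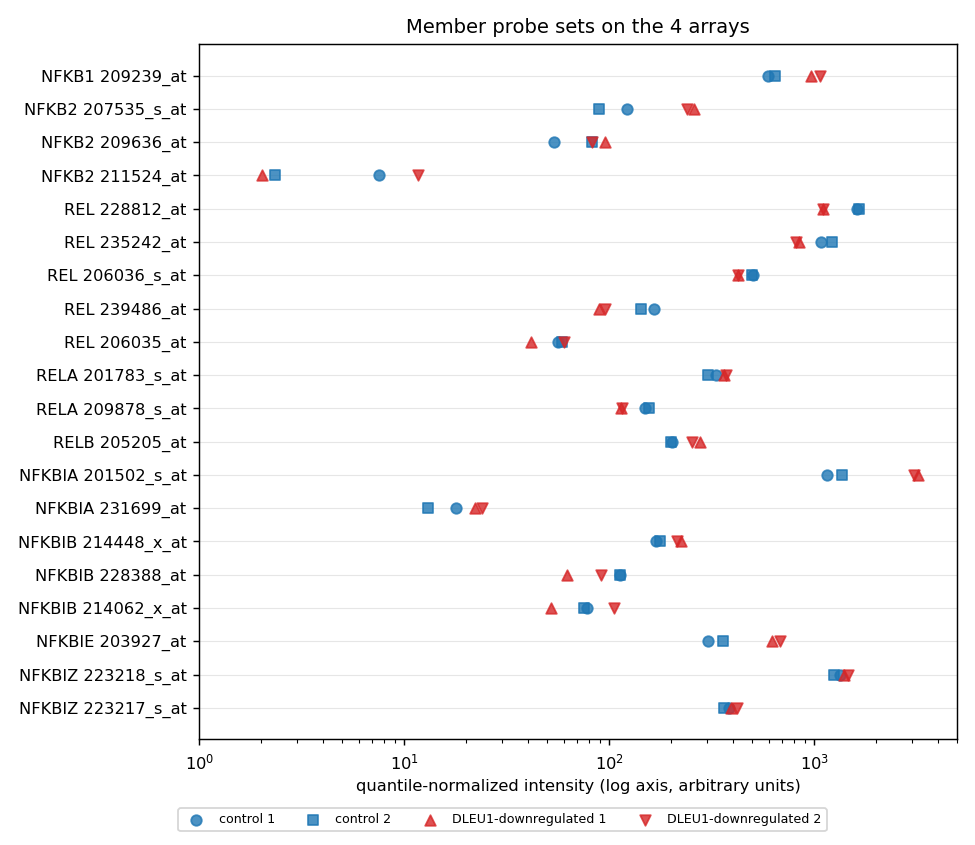
Quantile-normalized intensity (log axis) of the 20 member probe sets on the 2 control arrays (blue) and the 2 DLEU1-downregulated arrays (red), 1 row per probe set. The red points of NFKBIA 201502_s_at, NFKBIE, NFKB1 and NFKB2 207535_s_at lie clearly to the right of the blue ones, and those of 4 REL probe sets to the left.

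NFKBIA, on chromosome 14, encodes the inhibitor that NF-kB itself induces and that returns the dimer to the cytoplasm. It had the largest change of any member. Its bright probe set 201502_s_at read 1157 and 1360 in the control clone and 3207 and 3077 in the downregulated clone. Both arrays of the downregulated clone were thus above both control arrays, by far more than replicates differed. The mean rose from 1258 ± 143 to 3142 ± 91.6 (SD, n = 2 arrays each), which is 2.50-fold, with a log2 change of 1.31 ± 0.07 (SE, adjusted p = 5.34e-06). A second probe set, 231699_at, lay near the level added to every value, at 18.0 and 13.0 against 22.2 and 24.1, and its change of 0.32 ± 0.23 did not pass (adjusted p = 0.342).

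NFKBIE, on chromosome 6, encodes a related inhibitor that is also an NF-kB target. Its only probe set read 303 and 360 in the control clone and 625 and 682 in the downregulated clone. The groups did not overlap, and the log2 change was 0.95 ± 0.10 (SE, adjusted p = 1.26e-04).

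NFKBIB, on chromosome 19, encodes another cytoplasmic inhibitor, and none of its 3 probe sets passed. Probe set 214448_x_at read 170 and 177 against 225 and 214, a change of 0.31 (95% interval 0.06 to 0.55, adjusted p = 0.0550), and it passed after median centring (0.63, adjusted p = 0.00167). Probe set 228388_at read 113 and 113 against 62.3 and 91.0, a change of -0.50 (-0.90 to -0.10, adjusted p = 0.0596), which was -0.27 without DLEU1-downregulated replicate 1 and -0.71 with a call without replicate 2 of that clone (adjusted p = 0.0368). These 2 pointed in opposite directions, with no overlap between the clones in either on the normalized scale. The remaining one, 214062_x_at, read 78.3 and 75.4 against 51.9 and 105, so that the control values lay between those of the downregulated clone, and its change of -0.03 turned to 0.15 as deposited (adjusted p = 0.935 and 0.725). Both probe sets with the suffix _x_at may bind related transcripts.

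Among the subunits, NFKB1 and NFKB2 encode precursors that are processed to DNA-binding subunits without an activation domain of their own. NFKB1, on chromosome 4, read 594 and 643 in the control clone and 961 and 1073 in the downregulated clone. The groups were well apart, and the log2 change was 0.70 ± 0.08 (SE, adjusted p = 1.87e-04). NFKB2, on chromosome 10, the substrate of the non-canonical pathway, read 122 and 88.9 against 258 and 239 in probe set 207535_s_at. Its mean went from 105 ± 23.3 to 249 ± 13.5 (SD, n = 2 arrays each), a log2 change of 1.14 ± 0.15 (SE, adjusted p = 4.48e-04). A second NFKB2 probe set, 209636_at, read 53.8 and 82.3 against 95.5 and 82.4, so that control replicate 2 and DLEU1-downregulated replicate 2 were level. Its change of 0.34 ± 0.20 did not pass (adjusted p = 0.227), but it passed without control replicate 2 (0.60, adjusted p = 0.0475) and after median centring (0.57, adjusted p = 0.0139). The remaining one, 211524_at, was too dim to be tested, at 2.02 to 11.7 on the 4 arrays.

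RELB, on chromosome 19, encodes the transactivating partner of the processed NFKB2 product. It read 201 and 200 in the control clone and 278 and 252 in the downregulated clone, and the groups did not overlap. The rise was small, 0.37 ± 0.10 (SE, adjusted p = 0.0227). It lost the call without control replicate 2 (adjusted p = 0.0560) and without either array of the downregulated clone (0.180 for replicate 1 and 0.0647 for replicate 2), while the change itself stayed between 0.31 and 0.43 when arrays were left out.

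REL, on chromosome 2, encodes c-Rel, an activating subunit prominent in lymphocytes. Its brightest probe set, 228812_at, read 1618 and 1655 in the control clone and 1104 and 1103 in the downregulated clone, a log2 change of -0.56 ± 0.06 (SE, adjusted p = 8.54e-05). In probe set 235242_at the values were 1078 and 1224 against 847 and 820, a change of -0.46 ± 0.07 (adjusted p = 0.00154). Probe set 239486_at went from 166 and 144 to 88.9 and 95.7, a change of -0.65 ± 0.14 (adjusted p = 0.00598), with adjusted p = 0.0539 without DLEU1-downregulated replicate 1. On the normalized scale both downregulated arrays lay below both control arrays in all 3 of these, and also in 206036_s_at, described next. As deposited, 228812_at, 235242_at and 206036_s_at overlapped between the clones, and 239486_at did not. The share of all probe sets that separate in this way was not counted, so the separation is not read as a result about REL.

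The other two REL probe sets were less clear. Probe set 206036_s_at read 504 and 497 against 426 and 424, a change of -0.23 (adjusted p = 0.0487). It kept no call when any single array was left out, control replicates 1 and 2 (adjusted p = 0.107 and 0.0891) or DLEU1-downregulated replicates 1 and 2 (0.176 and 0.192). Probe set 206035_at, the dimmest, read 56.4 and 58.6 against 41.5 and 60.4, with overlapping groups and no call (adjusted p = 0.612). As deposited, none of the 5 REL probe sets passed. The brightest then read 1568 and 1302.4 against 1146.2 and 1319.5, so that control replicate 2 fell within the range of the downregulated clone, and its change was -0.21 (adjusted p = 0.553). The change of 235242_at was then -0.10 (adjusted p = 0.816), and that of 206036_s_at turned to 0.11 (adjusted p = 0.818). Probe set 239486_at still read lower on both downregulated arrays as deposited, at 165.7 and 114.5 against 90.7 and 110.7 (-0.41, adjusted p = 0.262).

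RELA, on chromosome 11, encodes the main activating subunit of the canonical pathway, and its 2 probe sets differed in sign. The brighter one, 201783_s_at, read 331 and 304 against 362 and 372, a change of 0.20 that did not pass (adjusted p = 0.124). As deposited its change was 0.52, also without a call (adjusted p = 0.134), but it passed after median centring (0.57, adjusted p = 0.00259). The dimmer one, 209878_s_at, read 150 and 157 against 115 and 115, and its change of -0.37 passed narrowly (adjusted p = 0.0484). That call was lost without either control replicate 1 or 2 (adjusted p = 0.0754 and 0.122), without DLEU1-downregulated replicate 1 or 2 (0.184 and 0.178), and as deposited (-0.11, adjusted p = 0.809).

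NFKBIZ, on chromosome 3, encodes a nuclear protein of the IkB family that acts as a cofactor at selected NF-kB targets. Its bright probe set 223218_s_at read 1339 and 1248 in the control clone and 1391 and 1457 in the downregulated clone. Both downregulated arrays lay above both control arrays, but the difference was only somewhat larger than the gap between replicates. The change of 0.14 ± 0.06 did not pass (adjusted p = 0.123). The second probe set, 223217_s_at, read 385 and 363 against 392 and 421, also without overlap, and had a change of 0.12 ± 0.09 (adjusted p = 0.351). As deposited the changes were 0.49 and 0.45, again without a call (adjusted p = 0.109 and 0.210). After median centring both passed, at 0.53 and 0.49 (adjusted p = 3.20e-04 and 0.00843).

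**Figure D3:**
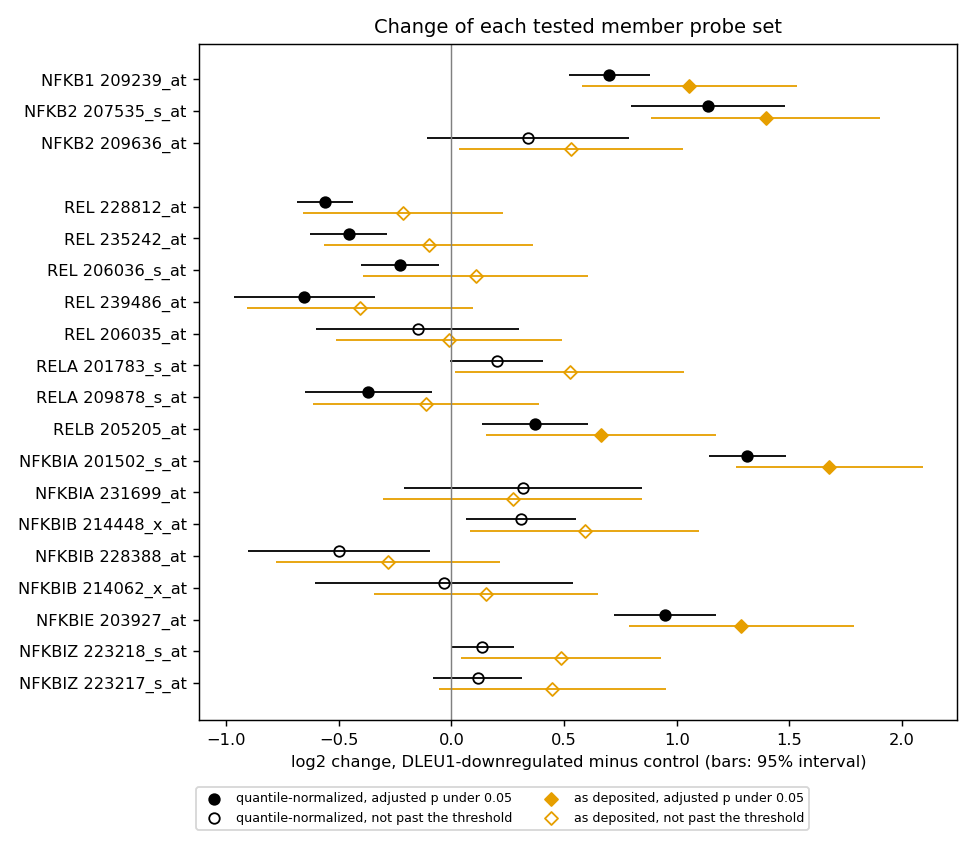
Log2 change of the 19 tested member probe sets, DLEU1-downregulated minus control, with 95% intervals, after quantile normalization (black circles) and as deposited (orange diamonds). Filled symbols passed an adjusted p of 0.05. NFKB1, NFKB2 207535_s_at, RELB, NFKBIA 201502_s_at and NFKBIE are filled on both scales, while the REL and RELA falls are filled only after normalization.

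Since the calls of REL depended on the scaling, members were also set against REL on the same array. A constant factor per array cancels there, but a difference between arrays that depends on intensity does not. This comparison and its reference probe set were chosen after the values were seen, and it uses the deposited values of the brightest probe set of each gene. The log2 ratio of NFKBIA to REL was -0.48 and -0.29 in the control clone and 1.56 and 1.49 in the downregulated clone. That is a 3.75-fold higher ratio in the downregulated clone, where control arrays differed by 0.19 on the log2 scale and downregulated arrays by 0.07. For NFKB1 to REL the log2 ratio was -1.43 and -1.37 against -0.18 and -0.04, a 2.45-fold higher ratio. The ratios of NFKB2 (3.39-fold), NFKBIE (2.93-fold), RELB (1.90-fold), NFKBIB (1.81-fold), RELA (1.70-fold) and NFKBIZ (1.63-fold) to REL were also higher on both downregulated arrays than on both control arrays. All of these share REL as denominator, whose deposited change was -0.21 against a median of 0.16 over all tested probe sets. A gene at that median would therefore also be higher relative to REL. The probe sets of NFKBIB, RELA and NFKBIZ used here passed neither after quantile normalization nor as deposited, though they did after median centring. The share of all probe sets that separate over REL was not counted. NFKBIA changed more than NFKB1 as well, with a 1.53-fold higher ratio, from 0.96 and 1.09 to 1.75 and 1.53 on the log2 scale. For each of the 10 ratios computed, NFKBIE to NFKB1 (1.19-fold) among them, the two-sided exact permutation p was 0.333, and with 6 ways to assign 4 arrays it could not be smaller. These ratios show that the members changed unequally, and they do not show which of them stayed at its level.

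**Figure D4:**
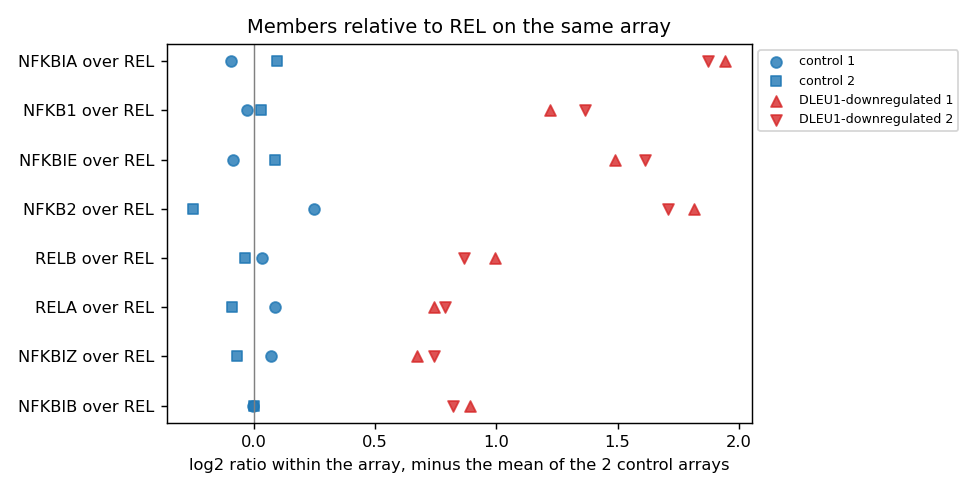
Log2 ratio of each member's brightest probe set to REL 228812_at on the same array, from deposited values, shown relative to the mean of the 2 control arrays. Blue points are control arrays and red points DLEU1-downregulated arrays. All red points lie to the right of all blue points, farthest for NFKBIA (a mean shift of 1.91) and least far for NFKBIZ (0.71). REL was chosen as the reference after the values were seen, and a gene at the median deposited change would also be higher relative to it. The share of all probe sets that separate over REL was not counted.

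The changes of the members were set beside those of their chromosomal neighbours, the 10 nearest tested genes on each side in the RefSeq order. Around NFKBIA the median change of the 20 neighbours was -0.20, and it was -0.26 around NFKBIE, -0.08 around NFKB1 and -0.06 around NFKB2. REL had neighbours with a median of 0.00, RELA of 0.04 and RELB of -0.13. No neighbourhood of a member that was higher had a positive median on the normalized scale. As deposited these medians lay between 0.06 and 0.35.

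By distance between centred log2 values over the 4 arrays, the 5 genes most like NFKBIA were MAD1L1, TSR3, KIAA0930, AGAP3 and GRK5. Their changes ran from 1.25 to 1.36. With 4 arrays this likeness reflects little more than a change of similar size.

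Other genes of the pathway were taken from lists chosen with earlier results of these data known, each gene by its brightest probe set. Over all 13292 genes tested in this way 20.6% were higher and 20.6% lower, with a median change of -0.01. As deposited, 20.3% were higher and 5.74% lower, with a median of 0.19. Of 15 receptors and ligands 8 were higher and 2 lower (8 and 1 as deposited), with a median change of 0.64 (1.00 as deposited), and without DLEU1-downregulated replicate 1 the higher were 5. TLR7, an endosomal sensor of RNA, went from 85.4 to 272 (1.51 ± 0.13, adjusted p = 4.78e-05), and CD40, the receptor for T-cell help, from 760 to 1280 (0.74 ± 0.07). TLR10, a Toll-like receptor of B cells, rose by 0.64. TNFRSF17, the plasma-cell survival receptor BCMA, fell from 647 to 274 (-1.19 ± 0.08, adjusted p = 1.11e-05).

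Kinases and adaptors between receptor and inhibitor went both ways. Of 12 genes of the IkB kinase complex and its upstream kinases, 3 were higher and 3 lower (median 0.04, and 0.35 as deposited). This was close to the shares over all genes, 20.6% higher and 20.6% lower (20.3% and 5.74% as deposited). As deposited limma called 3 higher and 0 lower, with 5 higher and 0 lower at unadjusted p under 0.05. CHUK, a catalytic subunit of the complex, rose by 0.33 (adjusted p = 0.0118). The other catalytic subunit, IKBKB, had a change of -0.27 (adjusted p = 0.0642, and 0.024 as deposited, adjusted p = 0.965) and the regulatory subunit IKBKG one of 0.19 (adjusted p = 0.336); these 3 are named because they make up the complex. TAB3 (0.67) and the kinase it assists, MAP3K7 (0.78), rose, and the related kinase IKBKE had a change of -0.57 and the adaptor TANK one of -0.29. Both of these passed only after normalization, and TANK turned to 0.081 as deposited (adjusted p = 0.839).

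On the route from the B-cell receptor 3 of 5 genes were higher and 2 lower (median 0.26, and 0.60 as deposited). Over all genes the shares were 20.6% higher and 20.6% lower. As deposited 2 were higher and 0 lower, also 0 lower at unadjusted p under 0.05, and 1 was higher without control replicate 1 or without DLEU1-downregulated replicate 1. PRKCB, a protein kinase C isoform prominent in B cells, rose by 0.34 and BTK, a kinase next to the receptor, by 0.33. BTK did not pass without control replicate 1 (adjusted p = 0.0515) or without DLEU1-downregulated replicate 1 (0.114). The phospholipase PLCG2 (-0.54) and the adaptor BCL10 (-0.72) passed as lower after normalization but not as deposited (adjusted p = 0.642 and 0.312).

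Of 16 adaptors and ubiquitin ligases 7 were higher and 4 lower (median 0.00, and 0.29 as deposited), against 20.6% higher and 20.6% lower over all genes. As deposited 7 were higher and 1 lower, and the lower were 2 without control replicate 2 or without DLEU1-downregulated replicate 2. TRAF1, an adaptor that NF-kB induces, rose from 173 to 499 (1.45 ± 0.11, adjusted p = 2.09e-05), and IRAK1, a kinase of Toll-like receptor signalling, from 1332 to 2445 (0.87). TRAF5 fell from 192 to 93.6 (-0.92, adjusted p = 5.54e-04), and BIRC2, a ubiquitin ligase that restrains the non-canonical pathway, had a change of -0.67 that passed after normalization but not as deposited (adjusted p = 0.342).

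Genes that restrain the pathway beside NFKBIA were taken next, in 2 lists to be read against the 20.6% higher and 20.6% lower over all genes. Of 8 deubiquitinases and their partners 3 were higher and 1 lower (median 0.04, and 0.37 as deposited), and as deposited 3 and 0, with 0 lower at unadjusted p under 0.05. TNFAIP3, a ubiquitin-editing brake on the pathway, rose from 1385 to 2800 (1.01 ± 0.06, adjusted p = 4.38e-06). Its binding partners TNIP1 (0.94) and TNIP2 (1.07) rose as well. OTULIN, which removes linear ubiquitin chains, had a change of -0.35 (adjusted p = 0.00840) that lost its call without DLEU1-downregulated replicate 1 (adjusted p = 0.0515) or replicate 2 (0.0615), and it was -0.01 as deposited. Among 5 other inhibitors and cofactors limma called 2 higher and 0 lower, also 0 lower at unadjusted p under 0.05 (median 0.30, and 0.51 as deposited). These were NFKBID, a further nuclear IkB protein, which rose from 95.5 to 193 (0.91 ± 0.14, adjusted p = 0.00113), and COMMD1, which promotes degradation of RELA (0.30, adjusted p = 0.00981). COMMD1 lost its call without DLEU1-downregulated replicate 1 (adjusted p = 0.0884) or replicate 2 (0.0507). NKRF (0.19) and PDLIM2 (0.35), other restrainers of NF-kB, did not pass (adjusted p = 0.175 and 0.228).

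Of 27 target genes 16 were higher and 4 lower (16 and 1 as deposited), with a median change of 0.52 (0.78 as deposited). The shares over all genes were 20.6% higher and 20.6% lower (20.3% and 5.74% as deposited). The smallest p-values were those of the chemokine CCL22 (252 to 3224, 3.60 ± 0.07), the cytokine subunit EBI3 (415 to 1135, 1.42), the survival gene BCL2A1 (590 to 1474, 1.30) and the cytokine IL10 (20.4 to 176, 2.41 ± 0.18). IL10 in the control clone was about as dim as the middle probe set of an array, so its fold is uncertain. This list overlaps in content with genes already known to be high in these arrays and is no independent support for the members.

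**Figure D5:**
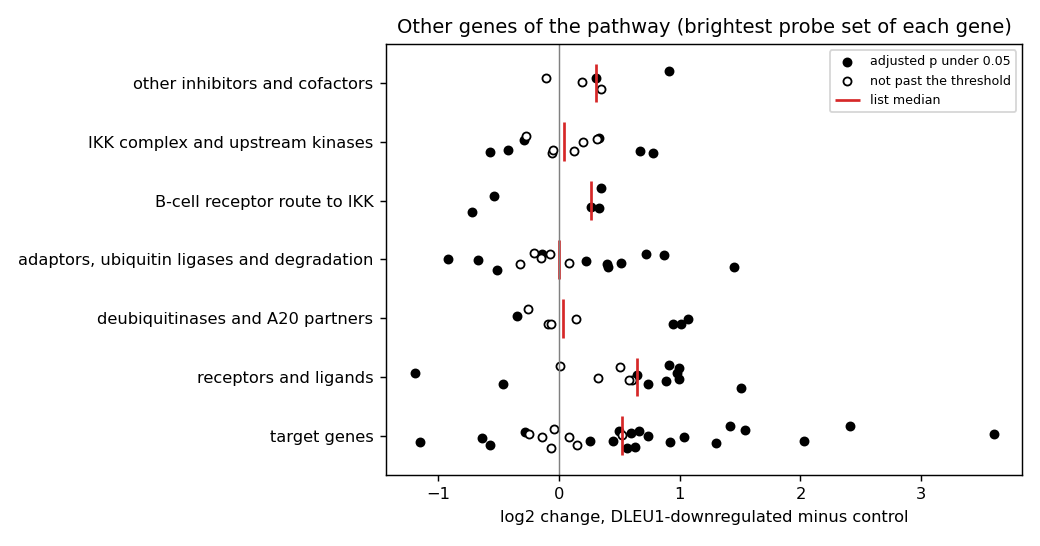
Log2 change (DLEU1-downregulated minus control, quantile-normalized) of the tested genes in 7 pathway lists, 1 point per gene, filled where the adjusted p was under 0.05, with the list median as a red line. Receptors and ligands (median 0.64) and target genes (0.52) are shifted to the right, while kinases (0.04) and adaptors (0.00) spread to both sides.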

How the data were processed

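RNA of 4 arrays was analysed from 1 table of linear intensity values per probe set, which the authors deposited and which, per the submitters' processing notes, was made with MAS5. Its version, its target intensity and any detection calls are not given in the sources used here. Intensities of the 54613 non-control probe sets were quantile-normalized and turned into log2(value + 16), on which the change of a dim probe set is understated. The 21845 probe sets with a mean below the 40th percentile were left out, and 32768 were tested with limma 3.58.1 in R 4.3.3 (lmFit, eBayes with an intensity trend, Benjamini-Hochberg over all tested, threshold 0.05, prior degrees of freedom 6.76, infinite as deposited). The fit was tested on simulated data. Only 2 arrays per group limit the precision. The annotation, of 2016, gave 41091 probe sets 1 symbol, 1801 several and 11721 none. Of those with 1 symbol, 41037 were matched to RefSeq (GRCh38.p14) and took its current symbol. No probe set coordinates were used.

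Named were all member probe sets, DLEU1, up to 4 genes with the smallest p per pathway list, the 5 genes most like NFKBIA, and genes marked otherwise in the text. Members and lists were chosen with earlier results of these data known. RefSeq promoter windows were searched in Python 3.11.15. Alternatives were other normalizations, pseudocounts, filters and thresholds, no trend, a replicate block, and leaving out arrays or _x_at probe sets.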

Additional observations from a re-analysis of the deposited data

How the results depend on the processing

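Across 14 alternatives the calls of 4 member probe sets, those of NFKB1, NFKB2 (207535_s_at), NFKBIA (201502_s_at) and NFKBIE, held in every one. These 14 do not include the 2-fold minimum or leaving out _x_at probe sets, which were applied to the counts alone. NFKB1 (0.70) and NFKBIE (0.95) do not reach the 2-fold minimum. Over all 19 tested members 214 of 265 values kept direction and call, 33 lost the call, 11 gained one and 7 changed sign. The count of higher member probe sets was 5, but 10 after median centring and 2 with a 2-fold minimum. Leaving out single arrays gave 4 to 5. The count of lower ones was 5, but 0 as deposited, 0 after median centring, 3 without a filter on dim probe sets, 2 without a trend, 3 at adjusted p under 0.01 and 0 with a 2-fold minimum, and 2 to 4 when single arrays were left out. Over all tested probe sets the higher numbered 10420 after median centring, 3576 without a trend, 3596 at adjusted p under 0.01, 845 with a 2-fold minimum and 3356 to 5310 without single arrays. The lower numbered 1673 as deposited, 2482 after median centring, 3580 without a trend, 3562 at adjusted p under 0.01, 1028 with a 2-fold minimum and 3654 to 4768 without single arrays. The change of REL 206036_s_at turned to 0.11 as deposited and 0.15 after median centring, and that of REL 206035_at to 0.033 after median centring, with -0.34 to 0.054 when single arrays were left out. NFKBIB 214062_x_at turned to 0.15 as deposited, 0.20 after median centring, with -0.44 to 0.38 when single arrays were left out. TANK turned to 0.081 and 0.13 on the same 2 scales, and OTULIN to 0.033 after median centring. The causes were not tested.

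Arrays with the same replicate number did not deviate together (Pearson r = -0.01 across probe sets), so the numbers were not taken as pairs. With a replicate block 5 member probe sets were higher and 4 lower, with 5658 higher and 5527 lower over all tested. REL 206036_s_at (adjusted p = 0.0708) and RELA 209878_s_at (0.0637) lost their calls and NFKBIB 228388_at gained one (0.0429). For the pathway lists, whose alternatives were chosen after seeing the data, 366 of 391 values of 28 named genes and 167 of 196 counts stayed as reported, the counts within 1.5 times. Without detection calls it is unknown which of the dimmest probe sets were above background.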

Other observations

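BCL3, which had no probe set of its own, was measured by 2 probe sets shared with MIR8085. Probe set 204908_s_at read 65.5 and 96.0 in the control clone and 75.9 and 69.2 in the downregulated clone, with overlapping groups (log2 change -0.11 ± 0.19, SE, adjusted p = 0.698), and as deposited the change was 0.08 (adjusted p = 0.867). The second, 204907_s_at, was close to the filter on dim probe sets at 21.8 and 9.10 against 2.73 and 15.9 (adjusted p = 0.497).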
